A study of Mus musculus with 4 samples.

Results

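Dividing muscle stem cells were compared between a progenitor culture and injured muscle. They were taken from the MPC library (myogenic progenitor cells in culture) and the ASC library (activated satellite cells from injured muscle), and were chosen by their own measured UMIs (counted RNA molecules). A cell needed at least 1 UMI of Pax7, which encodes the defining factor of the satellite cell, no UMI of Myog, the factor switched on at the start of differentiation, and at least 5 UMIs summed over the division genes Mki67, Top2a, Cenpf, Cdk1 and Ccnb1. Cells in which the macrophage genes Lyz2, Ctss, Tyrobp, Fcer1g and C1qb made up 0.5% or more of the UMIs were left out. This kept 3028 MPC cells and 1958 ASC cells, together 4986 of the 28363 barcodes of the series and of the 21301 cells that passed the quality filter. They were 30.6% of the MPC and 29.0% of the ASC cells past that filter.

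Every cell came from Pax7-nGFP mice, in which the promoter of Pax7 drives a nuclear green fluorescent protein. The MPC culture was started from a male aged 16 weeks, passed 2 times as myoblasts and then 5 times in a progenitor medium with Forskolin at 5 uM, which raises cAMP, Repsox at 5 uM, an inhibitor of TGF-beta signalling, and CHIR9901 at 3 uM, a GSK3 inhibitor that turns on the Wnt pathway. The medium also held basic FGF at 10 ng/ml. MPC were collected with trypsin and not sorted. ASC were freed with collagenase and sorted for GFP from 17 tibialis anterior muscles, pooled over males and females aged 18 to 24 weeks, 3 days after cardiotoxin, a snake toxin that destroys muscle fibres, was injected at 10 uM. The sources used here do not say how many mice gave these muscles. For context, values are also given for myoblasts of a male aged 16 weeks after 2 passages (853 cells by the same rule) and for fiSC, satellite cells sorted fresh from limb muscles of 3 males aged 13 weeks. Just 9 fiSC cells met the cycling criterion, so the fiSC values are of 1978 cells chosen without it. Each group was 1 library, so nothing was tested: culture against muscle, medium, animals, sex, age, library and batch cannot be told apart.

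Satellite cells lie quiescent beside the muscle fibre, under the sheet of matrix that wraps it, and Notch signalling is known to hold them there. Injury wakes them: they build ribosomes, enter the cell cycle, raise Myod1 and become myoblasts, which leave the cycle as Myog comes on and fuse into new fibres. Culture commonly drives the same change, and media with small molecules are used to keep dividing cells closer to the stem cell.

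A level is given in CPM, the gene's UMIs per 1000000 UMIs of the summed cells, and ratios are log2 of MPC over ASC after adding 5 CPM to each. A gene was called higher or lower in MPC where the ratio was 2-fold or more and the larger level was 10 CPM or more. The cells held 49626821 UMIs in MPC and 99550984 in ASC, with a median cell of 14670.5 UMIs and 4307 genes in MPC and of 49936 UMIs and 6563.5 genes in ASC. The exact Poisson interval of a sum at 50 CPM or more was at most 3.95% to either side in MPC and 2.79% in ASC, and such intervals cover counting error only. The ASC cells were deeper, so the fixed UMI limits let cells of lower levels in: 108 MPC cells held exactly 5 cycling UMIs, at 438 CPM of the 5 genes, against 15 such ASC cells at 293 CPM. Just outside the limit, with 4 cycling UMIs, were 107 MPC cells at 352 CPM and 9 ASC cells at 183 CPM. Exactly 1 Pax7 UMI was held by 1.95% of the MPC and 8.78% of the ASC cells. The limit of 0 Myog UMIs works the other way, as a low Myog level is missed more easily in the shallower MPC cells. That limit alone left out 2452 MPC and 431 ASC cells. Of the barcodes, 27 occurred in both libraries and 164 in both MPC and myoblast, and 3 and 2 of these were among the cells used.

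Over the 9268 genes with at least 10 CPM in either library, 1758 were higher in MPC (19%) and 625 were lower (6.74%), together 25.7%, and the median log2 ratio of all of them was 0.27. List medians below are to be read against that value, and list counts against the 19% and 6.74%. The split between higher and lower depended on the scaling: with edgeR's TMM factors in place of the totals, 1034 genes were higher and 1305 lower, so that 44.2% of the calls were higher, against 73.8% with the totals, and the median of all genes was -0.12. All of the 1034 were among the 1758, and all of the 625 were among the 1305. List counts that differed by over 1.5 times under TMM are given with the list. Under it the FGF and MAPK, G1, G2/M, glycolysis, Hox, retinoid and fetal lists had fewer higher members, and oxidative phosphorylation, translation and cholesterol synthesis more lower ones.

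**Figure D1:**
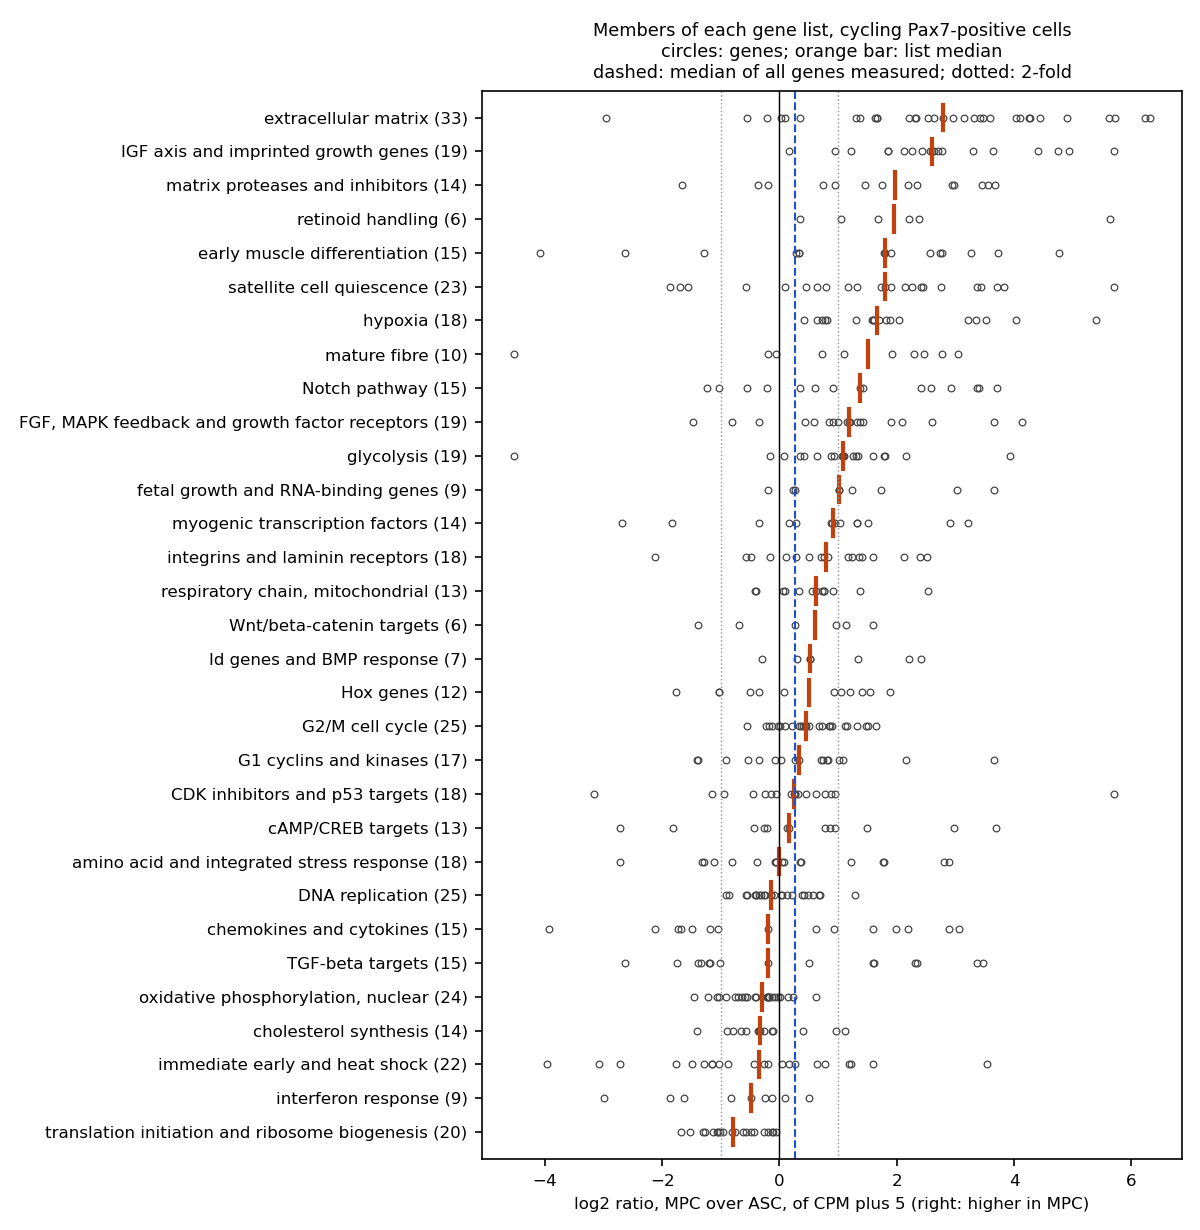
Log2 ratio of MPC over ASC for every measured member of 31 gene lists (circles), with the number of measured members in parentheses, the list medians (orange bars), the median of all 9268 genes (dashed line, 0.27) and the 2-fold limits (dotted lines). Extracellular matrix (median 2.79) and IGF and imprinted growth genes (2.60) stood at the top, and translation and ribosome biogenesis (-0.78) at the bottom, while DNA replication genes were gathered close to 0.

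Both libraries held most of the markers of muscle progenitors. Without Pax7, which the rule used, the 10 other measured markers summed to 1494 CPM in MPC and 1259 CPM in ASC, with 3 higher and 2 lower. The lower ones were Myod1 and Vcam1, and Chodl lay under 10 CPM in both libraries. Cdh15, the cadherin of satellite cells, had 182 CPM in MPC and 48.8 CPM in ASC, a log2 ratio of 1.80. Des, the muscle intermediate filament, had 432 CPM in MPC and 342 CPM in ASC, and Itga7, a laminin receptor used to sort these cells, had 127 and 76.4 CPM; neither reached 2-fold. Pax7 itself, which was required of every cell, had 965 CPM in MPC and 124 CPM in ASC (1287 in myoblasts and 919 in fiSC). This is a description, not a test, and the median cell held 13 Pax7 UMIs in MPC and 5 in ASC.

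Among the other 13 measured myogenic transcription factors, 5 were higher in MPC and 2 were lower, with a median log2 ratio of 0.89. Mef2c, a partner of the myogenic factors, was higher (83.1 CPM in MPC and 4.5 CPM in ASC, log2 ratio 3.21), and it stood at 8.74 CPM in myoblasts and 3.83 in fiSC. Msc (28.8 CPM in MPC and 6.87 CPM in ASC), Eya4 and Eya1 were among the other higher members. Msc, whose log2 ratio was 0.57 among cells of 15000 to 40000 UMIs, is a repressor of Myod1 activity, and the Eya proteins act upstream of the myogenic factors. Under TMM the count of higher members, Pax7 included, was 3 in place of 6. Myod1, the factor that commits activated cells to the muscle programme, was lower in MPC: 46.2 CPM against 178 CPM in ASC, a log2 ratio of -1.83, with 398 in myoblasts and 452 in fiSC. Lbx1, a homeobox factor of migrating limb muscle precursors, was also lower (0.685 CPM in MPC and 31.8 CPM in ASC, log2 ratio -2.69). Myf5, the earliest of the family, had 69.0 CPM in MPC and 35.3 CPM in ASC and did not reach 2-fold. Pax3, the paralogue of Pax7, lay under 10 CPM in both libraries (8.46 CPM in MPC and 6.12 CPM in ASC).

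The share of cells with Myod1 followed the summed levels. After each cell was thinned to 5000 UMIs (2998 MPC and 1950 ASC cells are that deep), a Myod1 UMI was seen in 19.2% of MPC cells (exact binomial interval 17.8 to 20.7%) and in 51.1% of ASC cells (48.9 to 53.4%). Without thinning the shares were 39.5% in MPC and 92.7% in ASC. In the macrophage-rich cells of ASC, which should lack the gene, the thinned share was 3.29%. Within MPC, Myod1 was seen in 19.1% of the thinned cells with Pax7 and in 21.1% of those without a Pax7 UMI at that depth, and within ASC in 49.6% and 52.5%.

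Genes known from quiescent satellite cells were mostly higher in the dividing cells of the culture. Of 23 measured members, 15 were higher in MPC and 3 lower, with a median of 1.80. Nfia, a nuclear factor of quiescent cells, had 1088 CPM in MPC and 71.6 CPM in ASC (log2 ratio 3.84). Tenm4, a transmembrane teneurin, had 152 and 9.52 CPM (3.43), and Gas1, a growth arrest protein at the cell surface, had 348 and 47.2 CPM (2.76), MPC first. Fgfr4, the FGF receptor of the muscle lineage, was higher as well (198 CPM in MPC and 49.2 CPM in ASC), and so was Spry1, the FGF inhibitor needed for return to quiescence (32.9 CPM in MPC and 10.1 CPM in ASC, against 203 in fiSC). The summed list had a median of 3884 CPM per MPC cell and 894 CPM per ASC cell, and 96.2% of MPC cells lay above the 95th percentile of ASC cells. Few genes carried much of that sum. Over the summed MPC cells the list had 4127 CPM, of which Nfia gave 1088 CPM and Cdkn1c, described below, a similar part. In fiSC the list had 7893 CPM.

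Not all of the list went that way. The surface markers Vcam1 (35.4 CPM in MPC and 115 CPM in ASC, log2 ratio -1.57) and Cd34 (0.242 and 11.9 CPM, -1.69) were lower in MPC, and so was the factor Klf4 (15 and 68.4 CPM, -1.87). All of these were highest in fiSC, at 622, 60.8 and 320 CPM. Calcr, the calcitonin receptor that marks quiescent cells, had 0.302 CPM in MPC, 1.07 CPM in ASC and 401 CPM in fiSC, and Chodl had 1.41, 1.34 and 445 CPM in that order. Dividing cells of both libraries thus lay far below fresh cells for these markers, whereas Nfia, Gas1, Hey1 and Heyl of MPC lay at or above their fiSC levels.

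Receptors and targets of the Notch pathway were higher in MPC. Of 15 measured members, 8 were higher and 2 lower, with a median of 1.37. Of the receptors, Notch3 had 242 CPM in MPC and 18.2 CPM in ASC (log2 ratio 3.41) and Notch1 had 153 CPM in MPC and 21.3 CPM in ASC (2.59), while Notch2, at 83.2 and 41.9 CPM, did not reach 2-fold. The target genes, repressors switched on by the cleaved receptor, were higher together: Hes1 at 251 CPM in MPC and 19.6 CPM in ASC (3.38), Heyl at 95.3 and 2.66 CPM (3.71) and Hey1 at 47.3 and 4.77 CPM (2.42). Hes1 was as high in myoblasts (303 CPM), but Heyl and Hey1 were not (1.92 and 1.45 CPM). Dtx4, a ligase of the pathway, was also higher (116 CPM in MPC and 10.9 CPM in ASC). The ligand Dll1 (5.30 CPM in MPC and 16.0 CPM in ASC, log2 ratio -1.03) and Hes6, a family member that opposes Hes1 (26.1 and 68.3 CPM, -1.24), were lower. Jag1 and Jag2, the other measured ligands, stayed under 2-fold. Notch3 is also a mural cell marker; all 5 measured mural markers were higher in MPC, Pdgfrb at 61.4 CPM in MPC and 0.231 CPM in ASC and Abcc9 at 31.8 and 0.311 CPM, and their part in the Notch3 level was not tested.

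**Figure D2:**
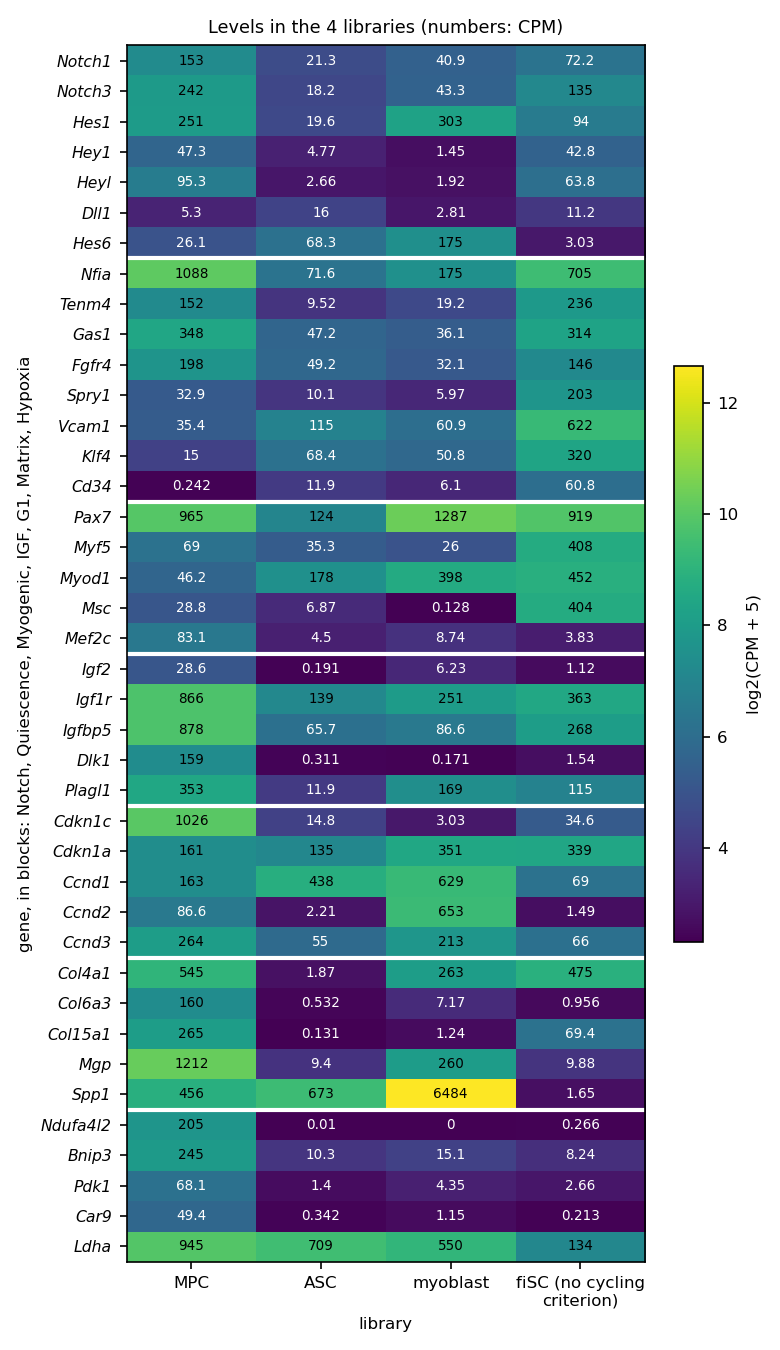
Levels of genes of 7 groups in the summed cells of MPC, ASC, myoblast and fiSC, coloured by log2 of CPM plus 5 with the CPM written in each cell. Notch targets Hey1 and Heyl were high in MPC and fiSC and low in ASC and myoblast, whereas Dlk1, Ndufa4l2, Bnip3 and Car9 were high in MPC alone of the 4 libraries shown.

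Growth factor receptors and the feedback genes of the MAPK pathway were higher in MPC for 12 of 19 measured members and lower for 1 (median 1.18, and 6 higher and 2 lower under TMM). Etv1, an ETS factor induced by FGF signalling, had 126 CPM in MPC and 2.42 CPM in ASC (log2 ratio 4.14). Dusp6, the phosphatase that shuts off ERK, had 60.4 and 10.3 CPM (2.09), and Spred1, Spred2 and Spry4, further brakes of the pathway, were higher by log2 ratios of 1.37, 1.18 and 1.21. The PDGF receptor Pdgfrb was higher by 3.67. Met, the receptor of hepatocyte growth factor, which wakes satellite cells, was lower (35.9 CPM in MPC and 108 CPM in ASC, log2 ratio -1.47), while its ligand Hgf was higher (16.7 CPM in MPC and 0.442 CPM in ASC). Fgfr1 and Egfr did not reach 2-fold.

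The IGF axis and the imprinted growth genes, which are expressed from 1 parental copy and set fetal growth, were the most uniform of the lists: 17 of 19 measured members were higher in MPC and 0 lower, with a median of 2.60 (16 higher under TMM). Of the ligand and receptors, Igf2 had 28.6 CPM in MPC and 0.191 CPM in ASC (log2 ratio 2.7), Igf1r had 866 and 139 CPM (2.60), and Igf2r, which clears the ligand, had 217 and 27.4 CPM (2.78). The binding proteins Igfbp7 (176 CPM in MPC and 1.73 CPM in ASC), Igfbp5 (878 and 65.7 CPM), Igfbp4 and Igfbp3 were higher by log2 ratios of 4.75, 3.64, 3.30 and 2.64. Dlk1, a membrane protein of fetal muscle, had 159 CPM in MPC and 0.311 CPM in ASC (4.95), with 0.171 in myoblasts and 1.54 in fiSC. Plagl1, a zinc finger factor that regulates other imprinted genes, had 353 and 11.9 CPM (4.40). Peg3, Mest and Grb10 were higher by 2.13, 1.85 and 1.86. Gnas (log2 ratio 0.95) and Igfbp6 (0.16) did not reach 2-fold.

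The imprinted CDK inhibitor Cdkn1c, known as p57 and known to stop the cycle of cells that leave it, had the highest ratio of this list, and it is counted in the quiescence list as well. It had 1026 CPM in MPC and 14.8 CPM in ASC, a log2 ratio of 5.70 with a counting interval of 5.64 to 5.77, and 3.03 CPM in myoblasts and 34.6 CPM in fiSC. After thinning it was seen in 80.7% of MPC cells (79.2 to 82.1%) and 6.46% of ASC cells (5.41 to 7.65%), against 1.85% of the macrophage-rich ASC cells, and without thinning in 93.6% of MPC and 26.3% of ASC cells. The level was still higher in the Myog-positive cells of MPC, at 3327 CPM. Within MPC the share of thinned cells with Cdkn1c was 80.9% where Mki67 was seen and 79.4% where it was not, and 65.6% of the cells held both. In ASC these shares were 6.53% and 6.37%.

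The other inhibitors did not share this pattern. Of the 18 measured CDK inhibitors and p53 targets, 1 was higher (Cdkn1c) and 2 were lower, with a median of 0.25, close to that of all genes (-0.15 and 3 lower under TMM). Cdkn1a, the p53 target p21, had 161 CPM in MPC and 135 CPM in ASC; Cdkn1b, p27, had 60.1 and 42.7 CPM, and Cdkn2a 35.1 and 28.3 CPM. Gadd45b, a stress gene, was lower (9.33 CPM in MPC and 124 CPM in ASC, log2 ratio -3.17), as was Aen, a nuclease of the p53 response (21.2 and 53.4 CPM, -1.16).

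The D cyclins, which carry growth signals to the cell cycle, were present in different proportions. Ccnd1 was lower in MPC (163 CPM against 438 CPM in ASC, log2 ratio -1.40, and -0.98 among cells of 15000 to 40000 UMIs), and so was its kinase Cdk6 (78.5 against 217 CPM, -1.41). Ccnd2 (86.6 CPM in MPC and 2.21 CPM in ASC, log2 ratio 3.67) and Ccnd3 (264 and 55.0 CPM, 2.16) were higher. Myoblasts held both Ccnd1 (629 CPM) and Ccnd2 (653 CPM) at higher levels than either. Ccnd2 was unevenly spread over the MPC cells: 17.0% of thinned cells had a UMI, and the 10% of cells with most held 81.1% of its UMIs. Without the MPC cells rich in fibroblast genes its log2 ratio was 3.07. Of the 17 measured G1 genes, 4 were higher and 2 lower, beside 19% and 6.74% of all genes, with E2f3 (1.09) and E2f7 (1.02) just past the limit. The median of the G1 genes, 0.33, was -0.03 under TMM, with 2 higher and 3 lower.

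DNA replication genes differed little between the cells. Of 25 measured members, 1 was higher (Pola1, a subunit of DNA polymerase alpha, at 259 CPM in MPC and 104 CPM in ASC) and 0 lower, with a median of -0.14; with no test, this does not show that the rest were equal. Under TMM 0 were higher and 2 lower, and the median was -0.51. A thinned cell held a median of 11 UMIs of these genes in both libraries, with quartiles of 6 to 17 in MPC and 8 to 14 in ASC. The G2/M list includes the 5 genes that chose the cells. Of its 20 other measured members, 4 were higher (Nusap1, Aurkb, Ttk and Kif11, by 1.51, 1.48, 1.32 and 1.12) and 0 lower, with a median of 0.44. The share higher was close to the 19% of all genes. With the rule's genes counted, 6 of 25 were higher, and 3 under TMM and 9 among cells of 15000 to 40000 UMIs. Thinned MPC cells held a median of 25 G2/M UMIs (quartiles 14 and 37.75) and ASC cells 16 (11.25 and 22).

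**Figure D3:**
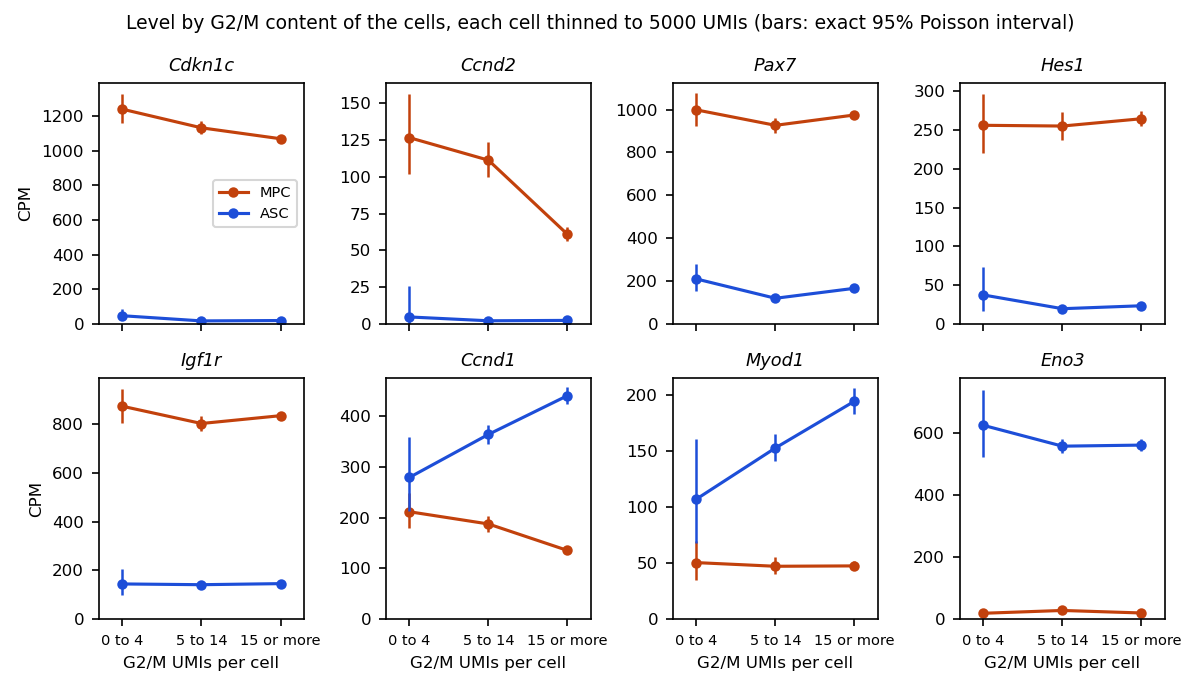
Level in CPM of 8 genes in MPC and ASC cells thinned to 5000 UMIs, split by the number of G2/M UMIs in the cell (0 to 4, 5 to 14, 15 or more; 139, 620 and 2239 cells of MPC and 43, 781 and 1126 of ASC). Bars are exact Poisson intervals. Cdkn1c was at 1068 CPM or more in all 3 MPC bins, and Ccnd1 was lowest in the last bin of MPC (135 CPM) and highest in the last bin of ASC (440 CPM).

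Cdkn1c, Hes1, Ccnd2 and Myod1 differed by 2-fold or more at each G2/M content, and Ccnd1 did so in the last bin only. Cdkn1c had 1239, 1131 and 1068 CPM in MPC cells with 0 to 4, 5 to 14 and 15 or more G2/M UMIs, and 46.5, 16.6 and 18.8 CPM in the same bins of ASC. Hes1 had 256, 255 and 265 CPM in MPC and 37.2, 19.5 and 23.3 CPM in ASC. Ccnd1 ran in opposite directions, at 212, 187 and 135 CPM in MPC and 279, 364 and 440 CPM in ASC. Ccnd2 was at 127, 111 and 60.8 CPM in MPC and at 4.65, 2.05 and 2.31 CPM in ASC, and Myod1 at 50.4, 47.1 and 47.4 CPM in MPC and 107, 153 and 194 CPM in ASC. The lowest bin of ASC holds 43 cells, and the trends were not tested.

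The Pax7-positive, Myog-negative cells of each library that fell short of 5 cycling UMIs gave a further contrast, chosen after its values were seen. They numbered 1699 in MPC (median 9499 UMIs) and 185 in ASC (median 7893 UMIs, against 49936 in the cycling cells). In MPC the non-cycling and cycling cells were close: 5 of 9045 genes were at least 2-fold higher in the non-cycling cells (0.0553%) and 256 were lower (2.83%), among them all 25 measured G2/M genes, some of which chose the cells. In ASC 901 of 8831 genes were higher in the non-cycling cells (10.2%) and 371 lower (4.2%). Of the quiescence list, 0 of 22 measured members were higher in non-cycling MPC cells and 16 of 25 in non-cycling ASC cells. For extracellular matrix these counts were 0 of 32 and 21 of 29, and for the IGF and imprinted list 0 of 20 and 11 of 17.

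Single genes show the same. Cdkn1c stood at 957 CPM in non-cycling and 1026 CPM in cycling MPC cells, but at 320 CPM in non-cycling and 14.8 CPM in cycling ASC cells. Nfia had 1068 and 1088 CPM in MPC and 262 and 71.6 CPM in ASC, and Heyl 86.4 and 95.3 CPM in MPC and 37.3 and 2.66 CPM in ASC, non-cycling cells first in each pair. Col4a1 had 588 and 545 CPM in MPC and 45.8 and 1.87 CPM in ASC. Hes1 was an exception, at 272 and 251 CPM in MPC and 27.4 and 19.6 CPM in ASC. For these genes the cycling cells of MPC held the level of their non-cycling counterparts, whereas those of ASC did not, Hes1 apart. The non-cycling ASC cells were also closer to other cell types in the droplets, with Lyz2 at 185 CPM against 102 CPM in the cycling ones, and the part of depth and of free RNA in this contrast was not tested.

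The extracellular matrix had the highest median of the lists, above the IGF and imprinted list in all settings but a pseudocount of 20 CPM and cells of 15000 to 40000 UMIs. Of 33 measured members, 27 were higher in MPC and 1 lower, with a median of 2.79. Of the basement membrane collagens, Col4a1 had 545 CPM in MPC and 1.87 CPM in ASC (log2 ratio 6.32, counting error only), Col4a2 had 340 and 1.98 CPM (5.63), Col15a1 had 265 and 0.131 CPM (5.72) and Col18a1 had 337 and 12.9 CPM (4.25). The chains of collagen VI, which is made in the niche of satellite cells, were higher together: Col6a1, Col6a2 and Col6a3 had 139, 92.3 and 160 CPM in MPC, against 1.57, 0.673 and 0.532 CPM in ASC. Laminins and their linkers showed the same order, with Lama2, the chain missing in a congenital muscular dystrophy, at 530 CPM in MPC and 72.5 CPM in ASC (2.79), Lama4 at 64.7 and 0.804 CPM (3.59) and Nid1 at 119 and 11 CPM (2.96). Gpc3, a heparan sulphate proteoglycan, had 512 CPM in MPC and 1.89 CPM in ASC (6.23), and Sparc, a collagen-binding protein, 754 and 117 CPM (2.64). Mgp, an inhibitor of calcification that stands in none of the lists, had the highest ratio of the genes named, at 1212 CPM in MPC and 9.40 CPM in ASC (6.40). Spp1, osteopontin, did not reach 2-fold in the sums (456 CPM in MPC and 673 CPM in ASC, with 6484 in myoblasts). It was unevenly spread over the MPC cells: a UMI was seen in 31.5% of thinned MPC cells and 90.8% of thinned ASC cells. The near sums thus do not describe the typical cell.

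The collagen I chains went opposite ways. Col1a1 was higher in MPC (21.7 CPM against 0.402 CPM in ASC, log2 ratio 2.31) and Col1a2, its partner in the same triple helix, was lower (3.67 CPM in MPC and 62.7 CPM in ASC, -2.97). The low Col1a2 was not particular to the cycling cells of MPC. In the MPC cells with neither Pax7 nor Myog, Col1a1 had 620 CPM and Col1a2 just 3.81 CPM. The part of the counting in the Col1a2 level was not tested. Markers of fibroblasts had a sum of 769 CPM in MPC and 137 CPM in ASC. Col3a1 alone gave 554 CPM of the sum in MPC, and Col1a2 gave 62.7 CPM of that in ASC. In 138 MPC cells (4.56%) and 0 ASC cells, 0.1% or more of the UMIs came from Crabp1, Mmp3, Dcn, Lum and Col1a1 together. These are the cells called fibroblast-rich. Without those cells 24 of 30 measured matrix members were higher and 2 lower, with a median of 2.7. Dcn, Lum and Col1a1 are matrix members and were among the genes that picked those cells, so a fall of these was fixed in advance. The part of fibroblast RNA in the remaining cells was not tested.

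The list of enzymes that cut the matrix and of their inhibitors leaned the same way: 9 of 14 measured members were higher in MPC and 1 lower (median 1.97). The higher ones included the inhibitors Timp3 and Serpine2, while Timp1 and Timp2 did not reach 2-fold. Mmp14, the membrane collagenase, had 128 CPM in MPC and 7.20 CPM in ASC (log2 ratio 3.45), Adam12, a protease of regenerating muscle, 112 and 4.94 CPM (3.55), and Mmp2 37.3 and 0.362 CPM (2.98). Mmp3 had 58.6 CPM in MPC and 0 UMIs in ASC, which makes it at least 1943-fold higher against a floor of 3 UMIs over the group. However, it had 1834 CPM in the MPC cells with neither Pax7 nor Myog. Without the fibroblast-rich cells its log2 ratio was 0.42, under the call. Mmp3 was among the genes that picked those cells, so a fall was fixed in advance. Plaur, the urokinase receptor, was lower (19.7 CPM in MPC and 73.3 CPM in ASC, -1.66). Of the 18 measured integrins and laminin receptors 8 were higher and 1 lower (median 0.79): Itga6 and Itga4 were higher by 2.4 and 2.51, Dag1, dystroglycan, by 1.24 (302 CPM in MPC and 125 CPM in ASC, and 0.84 under TMM), and Itga3 was lower by a log2 ratio of -2.12. Itgb1, the common beta chain, had 379 and 309 CPM and did not reach 2-fold.

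**Figure D4:**
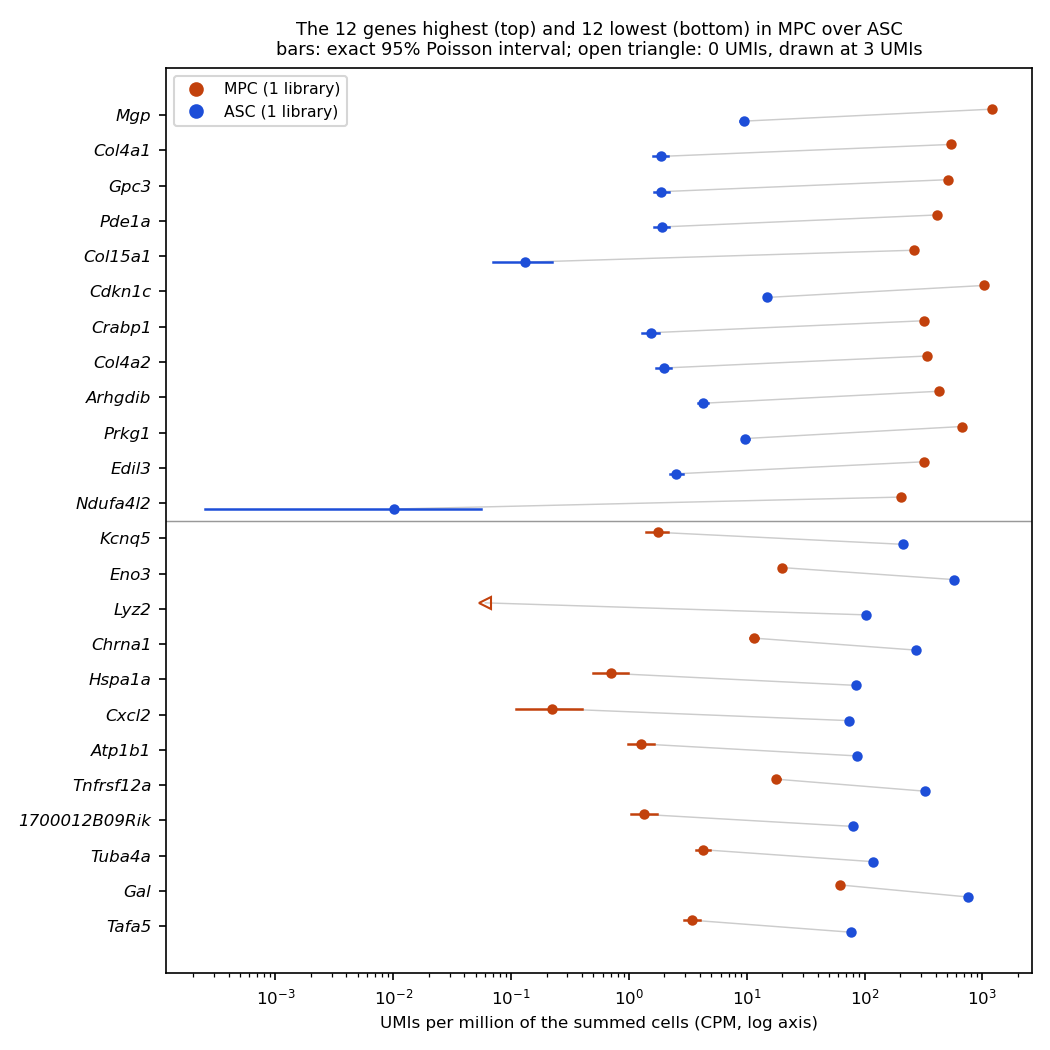
Levels on a log axis of the 12 genes with the highest and the 12 with the lowest ratio of MPC over ASC (genes of at least 50 CPM, seen in 10% or more of the cells of the library where they are higher), with exact Poisson intervals. Ndufa4l2 had 1 UMI in all ASC cells, and Lyz2 had 0 UMIs in MPC and is drawn at 3 UMIs.

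The genes with the highest ratios also included some outside these lists. Pde1a, a phosphodiesterase, had 413 CPM in MPC and 1.91 CPM in ASC (log2 ratio 5.92), and Prkg1, the cGMP-dependent kinase, had 667 and 9.73 CPM (5.51). Edil3, a matrix protein that binds integrins, had 316 CPM in MPC and 2.53 CPM in ASC (5.42). Crabp1, a retinoic acid binding protein, had 322 and 1.53 CPM (5.65), but it came from few cells: 9.14% of thinned MPC cells (8.13 to 10.2%) had any. It had 5160 CPM in the MPC cells with neither Pax7 nor Myog, and without the 138 fibroblast-rich MPC cells its log2 ratio was 1.52. Crabp1 was among the genes that picked those 138 cells, so a fall was fixed in advance. Of the 6 measured retinoid genes 5 were higher in MPC (median 1.95, and 3 higher under TMM), among them the receptor Rarb (41.7 CPM in MPC and 3.96 CPM in ASC) and the synthetic enzyme Aldh1a2 (11.4 and 0.11 CPM).

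Hypoxia targets were higher in MPC for 13 of 18 measured members and lower for 0, with a median of 1.66. When oxygen is short, HIF stabilises and binds the short sequence ACGTG or GCGTG in the regulatory DNA of its targets. Ndufa4l2, a subunit that replaces another in the respiratory chain under low oxygen, had 205 CPM in MPC and 1 UMI in ASC. Bnip3, which removes mitochondria, had 245 CPM in MPC and 10.3 CPM in ASC (log2 ratio 4.03), Pdk1, which keeps pyruvate out of the mitochondrion, 68.1 and 1.40 CPM (3.52), Car9, an enzyme of acid export, 49.4 and 0.342 CPM (3.35) and Ddit4, an mTOR inhibitor, 152 and 11.9 CPM (3.22). All of these were also low in myoblasts, at 0, 15.1, 4.35, 1.15 and 11.8 CPM. Ldha and Pgk1, which are targets too, did not reach 2-fold, at 945 and 921 CPM in MPC and 709 and 590 CPM in ASC. The oxygen in the cultures is not given in the sources used here.

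The 250 bases before the annotated start are shown for the 4 members with the highest ratios among those with an entry, and for Ldha and Pgk1, which are targets with small ratios. Each is on the gene's strand, from RefSeq on build GRCm38.p6, with ACGTG or GCGTG or their reverse complements in capitals. The windows are chr7:138909507-138909756 (minus strand) for Bnip3, chr2:71872974-71873223 (plus) for the first of 2 starts of Pdk1, chr4:43506776-43507025 (plus) for Car9, chr10:59951771-59952020 (minus) for Ddit4, chr7:46845554-46845803 (plus) for the first start of Ldha and chrX:106186850-106187099 (plus) for Pgk1.
Bnip3: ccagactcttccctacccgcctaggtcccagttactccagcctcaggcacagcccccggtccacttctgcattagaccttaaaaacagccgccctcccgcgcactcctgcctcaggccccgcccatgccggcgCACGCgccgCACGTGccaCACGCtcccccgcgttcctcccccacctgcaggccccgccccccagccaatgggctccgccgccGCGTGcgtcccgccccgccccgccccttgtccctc
Pdk1: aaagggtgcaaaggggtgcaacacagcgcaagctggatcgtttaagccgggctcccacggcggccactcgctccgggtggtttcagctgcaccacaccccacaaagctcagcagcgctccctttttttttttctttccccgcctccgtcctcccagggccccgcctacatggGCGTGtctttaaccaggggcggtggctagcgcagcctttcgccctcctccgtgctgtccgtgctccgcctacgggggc
Car9: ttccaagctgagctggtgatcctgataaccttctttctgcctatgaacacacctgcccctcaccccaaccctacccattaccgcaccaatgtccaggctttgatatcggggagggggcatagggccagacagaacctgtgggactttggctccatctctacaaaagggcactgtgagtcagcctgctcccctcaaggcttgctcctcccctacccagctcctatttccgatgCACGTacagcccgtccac
Ddit4: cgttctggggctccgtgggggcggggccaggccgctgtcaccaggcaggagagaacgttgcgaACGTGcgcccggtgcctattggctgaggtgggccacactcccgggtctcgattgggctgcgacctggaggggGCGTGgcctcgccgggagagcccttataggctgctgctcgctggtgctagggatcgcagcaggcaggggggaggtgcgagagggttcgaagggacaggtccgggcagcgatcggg
Ldha: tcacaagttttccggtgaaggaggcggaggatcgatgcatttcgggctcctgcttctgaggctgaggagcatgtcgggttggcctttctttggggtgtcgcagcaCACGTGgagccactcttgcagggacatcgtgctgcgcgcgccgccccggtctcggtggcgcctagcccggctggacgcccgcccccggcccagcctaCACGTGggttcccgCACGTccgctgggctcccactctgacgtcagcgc
Pgk1: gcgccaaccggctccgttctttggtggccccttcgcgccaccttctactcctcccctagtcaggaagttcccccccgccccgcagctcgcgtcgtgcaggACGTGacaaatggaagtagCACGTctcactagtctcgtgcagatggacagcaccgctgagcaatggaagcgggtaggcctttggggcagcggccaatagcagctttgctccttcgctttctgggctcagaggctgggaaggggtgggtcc
The capitals form 4 stretches in Bnip3, 3 in Ldha, 2 each in Ddit4 and Pgk1, and 1 each in Pdk1 and Car9. In the windows shown their number thus did not follow the ratio. The second start of Pdk1, not shown, had 0 and that of Ldha 1. In windows from 250 bases before to 50 after the start, searched on both strands, all 16 list members with an entry held the motif (100%). This was against 70.7% of the 7445 measured genes with an entry and 46.7% of all 27025 genes of the table. For a gene with several starts, a match at any of them counted. ACGTG also lies within the E-box CACGTG, which other factors bind. A match describes the letters only, and the targets were listed as known targets of HIF.

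Glycolysis shares some of these genes. Of 19 measured members 11 were higher in MPC and 1 lower, with a median of 1.08 (5 higher under TMM). Slc16a3, the lactate exporter, had 116 CPM in MPC and 2.97 CPM in ASC (log2 ratio 3.93), Eno1, enolase, 409 and 87.4 CPM (2.16), and Hk2, hexokinase, 149 and 39.7 CPM (1.78). Gapdh, at 1877 and 2097 CPM, and Pgam1, at 460.5 and 437 CPM, did not reach 2-fold. Eno3, the muscle form of enolase, was among the lowest of all genes: 20.0 CPM in MPC and 572 CPM in ASC (-4.53), with 369 CPM in myoblasts. It was seen in 9.97% of thinned MPC and 89.3% of thinned ASC cells. Enolase was therefore split between its forms, with Eno1 above Eno3 in MPC and Eno3 above Eno1 in ASC on the scale of UMIs, which does not correct for how well each transcript is captured.

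Nuclear genes of oxidative phosphorylation leaned the other way, with 0 of 24 measured members higher and 4 lower (Ndufb8, Uqcrb, Sdhd and Cox5a), a median of -0.30, and 9 lower under TMM. Ndufb8, of complex I, had 144 CPM in MPC and 406 CPM in ASC. The mitochondrial chain genes had a median of 0.63, with mt-Nd6 (215 CPM in MPC and 32.9 CPM in ASC, 2.54) and mt-Nd3 (1471 and 565 CPM, 1.37) higher (1 higher under TMM, with mt-Nd3 at 0.96); mt-Nd6 is read from the other strand of the mitochondrial genome, and how the counting treated strand is not given in the sources used here. Cholesterol synthesis had 1 higher (Stard4) and 1 lower member of 14 and a median of -0.34 (0 higher and 3 lower under TMM).

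Translation and ribosome biogenesis, the programme of cell growth that activation switches on, had the lowest median of the lists as measured here. Of 20 measured members 0 were higher and 8 lower in MPC, with a median of -0.78 (12 lower under TMM, and 4 among cells of 15000 to 40000 UMIs). The chemokine list was lower with thinned cells, with the mean per cell or without the fibroblast-rich cells, the TGF-beta list with cells thinned before they were chosen, the immediate early list at a minimum of 50 CPM or among cells of 15000 to 40000 UMIs, and the interferon list without the macrophage criterion. Npm1, nucleophosmin, had 1639 CPM in MPC and 4723 CPM in ASC (log2 ratio -1.52, with 1859 CPM in myoblasts). Ncl, nucleolin, had 1232 and 2699 CPM (-1.13). Eif5a, an elongation factor, had 520 CPM in MPC and 1681 CPM in ASC (-1.68), and the small nucleolar proteins Gar1 and Nolc1 were lower by log2 ratios of -1.30 and -1.26. The summed list had a median of 6980 CPM per MPC cell and 14407 CPM per ASC cell, and 67.8% of MPC cells lay below the 5th percentile of ASC cells. Ribosomal protein genes took 23.3% of the UMIs in MPC and 27.9% in ASC.

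**Figure D5:**
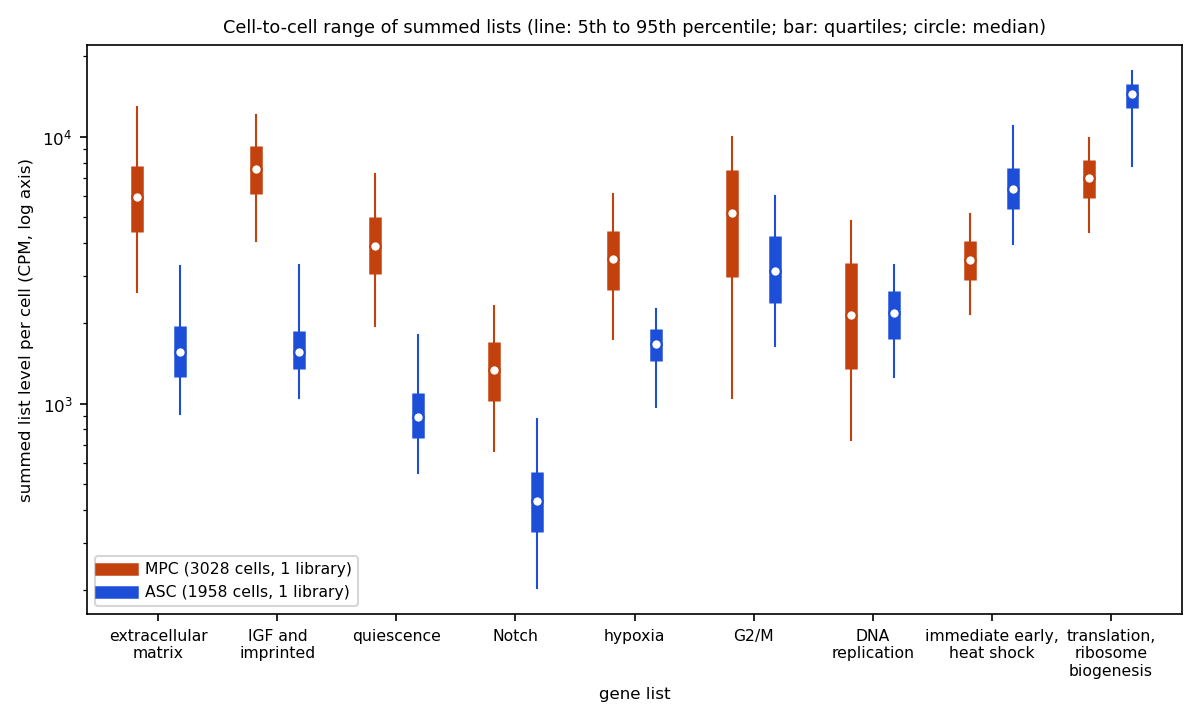
Summed level per cell, in CPM on a log axis, of 9 gene lists in the 3028 MPC and 1958 ASC cells (circle: median; bar: quartiles; line: 5th to 95th percentile). The ranges of the IGF and quiescence lists hardly met between the libraries, those of DNA replication overlapped throughout, and the translation list was lower in MPC. The cells are not replicates.

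Muscle differentiation genes were split. Of 15 measured early members 9 were higher in MPC and 3 lower (median 1.80), although no cell held a Myog UMI. That limit is weaker in MPC, whose median cell held 14670.5 UMIs against 49936 in ASC. The part of MPC cells with a low, missed Myog level was not tested. The embryonic and adult actins Actc1 (135 CPM in MPC and 0.151 CPM in ASC, log2 ratio 4.77) and Acta1 (100.4 and 2.94 CPM, 3.73) and the light chain Mylpf (111 and 6.98 CPM, 3.27) were higher. These lay far under the Myog-positive cells of MPC, where Actc1 had 2036 CPM: over the 15 genes the level in the cells used was a median of 10.8% of that in the Myog-positive cells. Without the 164 MPC cells (5.42%) in which 0.1% or more of UMIs came from 5 such genes, 9 were higher and 3 lower as before. Lower in MPC were Chrna1, a subunit of the acetylcholine receptor (11.5 CPM in MPC and 274 CPM in ASC, -4.08), and Ttn, titin (47.1 and 320 CPM, -2.64). For these 2 the Myog-positive cells of MPC, at 107 CPM for Chrna1 and 1611 CPM for Ttn, lay below and above the cycling ASC cells. Of the 10 measured mature fibre genes 6 were higher and 1 lower (Eno3), with a median of 1.51. The part of free RNA and of doublets with differentiating cells in these levels was not tested.

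Targets of the pathways that the medium acts on gave mixed counts. Of the 13 measured cAMP/CREB targets 3 were higher and 2 lower, beside 19% and 6.74% of all genes, with a median of 0.16 (-0.20 under TMM). Over the 4 members of at least 50 CPM the median was 2.23, with 3 higher and 0 lower. That minimum left out both lower members, so this value does not describe the whole list. The higher ones were all phosphodiesterases, enzymes that break down cyclic nucleotides: Pde4b (981 CPM in MPC and 71.4 CPM in ASC, log2 ratio 3.69), Pde10a (526 and 62.7 CPM, 2.97) and Pde4d (737 and 259 CPM, 1.49). Fresh cells had 2303 CPM of Pde4b. Atf3 (2.74 CPM in MPC and 45.7 CPM in ASC, -2.71) and Nr4a2 (4.69 and 29.0 CPM, -1.81) were lower, and both are also immediate early genes. Of the 6 measured Wnt targets Nkd1 (10.8 CPM in MPC and 0.241 CPM in ASC, 1.59) and Lgr5 (16.7 and 4.89 CPM, 1.14) were higher and Ccnd1 lower, none passing as higher under TMM, and the feedback gene Axin2 had 4.59 CPM in MPC and 10.4 CPM in ASC, under 2-fold.

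TGF-beta targets went both ways, with 6 higher and 7 lower of 15 measured, beside 19% and 6.74% of all genes. Their median was -0.20, and it was 1.43 over the genes of at least 50 CPM. The lower members included the direct feedback genes Smad7 (10.8 CPM in MPC and 31 CPM in ASC, log2 ratio -1.19), Skil (4.92 and 20.0 CPM, -1.33), Pmepa1 and Ldlrad4, Ltbp1, which stores the ligand (28.7 and 109 CPM, -1.75), and Thbs1 (5.34 and 59.3 CPM, -2.64). Higher were the smooth muscle genes Acta2 (260 CPM in MPC and 20.5 CPM in ASC, 3.37) and Tagln (72.7 and 1.97 CPM, 3.48), with Timp3, Col1a1, Ltbp3 and Bhlhe40. Without the fibroblast-rich MPC cells the log2 ratio of Timp3 was 1.23, against 2.35 with them. The ligand Tgfb2 was higher too, at 165 CPM in MPC and 15.3 CPM in ASC (3.07), while Tgfb1 had 15.6 and 18.7 CPM. Of the 7 measured members of the Id and BMP list 3 were higher and 0 lower (2 higher under TMM): Grem1, a BMP antagonist (18.8 CPM in MPC and 0.141 CPM in ASC), was among them, with a log2 ratio of 0.53 without the fibroblast-rich cells, as was Id3 (509 CPM in MPC and 199 CPM in ASC, 1.33), whose call was lost under TMM. Id1 and Id2 did not reach 2-fold.

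Immediate early and heat shock genes, which also respond to tissue dissociation and sorting, had 4 higher and 9 lower members of 22 measured, with a median of -0.35 (2 higher and 10 lower under TMM, and 2 and 12 among cells of 15000 to 40000 UMIs, with a median of -1.04 over genes of at least 50 CPM). Egr1 was the exception at the top (504 CPM in MPC and 38.7 CPM in ASC, log2 ratio 3.54). The chaperones were lower in MPC: Hspa1a (0.705 CPM in MPC and 84.4 CPM in ASC, -3.97), Hspa1b (2.18 and 55.6 CPM, -3.08), Hspb1 (46.5 and 169 CPM, -1.76), Hsp90aa1 (729 and 2052 CPM, -1.49) and Hspa8 (1219 and 2966 CPM, -1.28). In fiSC, the other library sorted from tissue, Hspa1a stood at 5339 CPM. The part of the different handling in this list was not tested. Fos had 120 CPM in MPC and 116 CPM in ASC, and Jun 247.5 and 337 CPM. Of the amino acid and integrated stress response genes 5 were higher and 4 lower of 18, with Aldh1l2, a mitochondrial folate enzyme, highest (2.90), and Atf4, the factor of that response, lower (95.5 CPM in MPC and 245 CPM in ASC, -1.32).

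Among signals to other cells, chemokines and cytokines had 5 higher and 7 lower members of 15, and the interferon list 0 higher and 3 lower of 9. The median of the chemokine list, -0.20, was -0.95 under TMM and 0.32 with macrophage RNA subtracted from ASC. Cxcl14 (33.8 CPM in MPC and 0.221 CPM in ASC) and Il33 (82.9 and 14.2 CPM) were higher, and Cxcl2 (0.222 and 74.2 CPM, log2 ratio -3.92), Cxcl1, Il1b and Cxcl12 were lower. H2-D1, a class I antigen gene, had 8.89 CPM in MPC and 105 CPM in ASC (-2.99). Cxcl2 and H2-D1 stood at 9908 and 2054 CPM in the 2013 macrophage-rich cells of ASC. The 16 macrophage markers had a sum of 43.7 CPM in MPC and 437 CPM in ASC, and Lyz2, C1qb and C1qa had 0 UMIs in MPC. Of the 9 measured ones, 5 (Lyz2, Ctss, Tyrobp, Fcer1g and C1qb) had been used by the rule. The other 4 were all lower in MPC, with a sum of 34.5 CPM in MPC and 199 CPM in ASC. In ASC each of the 9 stood at 0.574 to 0.840% of its level in the macrophage-rich cells. Cxcl2 stood at 74.2 of 9908 CPM, close to that share, while H2-D1, at 105 of 2054 CPM, lay well above it. With 0.574% of the macrophage profile, the share set by Lyz2, subtracted from ASC, 1772 genes were higher and 612 lower. The log2 ratio of Cxcl2 was then -2.10 and that of H2-D1 was -2.84.

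The remaining genes with the lowest ratios were these. Kcnq5, a potassium channel, had 1.75 CPM in MPC and 211 CPM in ASC (log2 ratio -5.00). Gal, the neuropeptide galanin, had 62.2 CPM in MPC and 751 CPM in ASC (-3.49) and was seen in 11% of thinned MPC and 76.9% of thinned ASC cells. Atp1b1, a sodium pump subunit, had 1.27 and 85.8 CPM (-3.86), and Tafa5, a secreted peptide, 3.45 and 76.8 CPM (-3.28). Tnfrsf12a, the receptor of TWEAK, a cytokine of damaged muscle, had 17.8 CPM in MPC and 324 CPM in ASC (-3.85). Tuba4a, an alpha tubulin, and 1700012B09Rik were lower by log2 ratios of -3.74 and -3.75.

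Genes of position and of the fetal programme also differed. Of the 12 measured Hox and limb genes 5 were higher (3 under TMM, and 1 with a pseudocount of 20 CPM) and 3 lower (0 with that pseudocount), most of them at low levels: Hoxc5, Hoxc8, Hoxc4, Hoxc10 and Hoxc6 were higher by log2 ratios of 1.88, 1.55, 1.41, 1.21 and 1.06, and the lower members included Hoxa11 (0.0806 CPM in MPC and 12.2 CPM in ASC, -1.76) and Hoxa9 (-1.03). Hox genes record position along the body and limb, and the muscle from which the MPC culture was started is not given in the sources used here. Of the 9 measured fetal growth and RNA-binding genes 6 were higher and 0 lower (3 higher under TMM). Igf2bp2 had 166 CPM in MPC and 15.9 CPM in ASC (3.03), and Igf2bp3 had 26.3 and 4.40 CPM (1.74). Hmga2, at 253 and 210 CPM (1557 in myoblasts), did not reach 2-fold in the sums. It was unevenly spread over the MPC cells: a UMI was seen in 27.4% of thinned MPC cells and 58.8% of thinned ASC cells.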

How the data were processed

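Droplet-based 3' (v3.1) single-cell RNA libraries were counted by the authors and deposited as unscaled UMI counts for each gene in each barcode. The tool was STAR 2.7.10b and the genome GRCm39, per the submitters' processing notes. The gene model, the strand setting and the way cells were called are not given in the sources used here. Barcodes with at least 1000 UMIs, 500 genes and at most 10% mitochondrial UMIs were kept, and the cells used were then chosen by the UMIs of Pax7, Myog and the cycle and macrophage genes. Their UMIs were summed per library. Each comparison holds 1 library a group, so no test was made, and exact 95% Poisson and binomial intervals cover counting error only. A sum of 0 was given a floor of 3 UMIs. Cells were thinned to 5000 UMIs for shares. Genes were named as the 12 highest and 12 lowest ratios among genes of at least 50 CPM in 10% or more of cells, plus list members. The members and lists were chosen with earlier results of these data known. Counting and calls were tested on simulated data. Doublets were left in, and Scrublet (scanpy 1.11.5) was an alternative, as were TMM factors (edgeR 4.0.16, R 4.3.3), the pseudocount, the minimum level, each limit of the cell rule, depth and other cell types. Python 3.11.15, numpy 2.4.6, scipy 1.17.1 and pandas 2.3.3 were used. Promoters came from RefSeq on GRCm38.p6, a build other than that of the counts. Xist, H19 and Meg3 were not analysed here, and a few list members are not reported here.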

Additional observations from a re-analysis of the deposited data

How the results depend on the processing

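Over all settings run, no gene past the call passed it in the other direction. Under TMM the medians of the Wnt, cAMP, CDK inhibitor and G1 lists were -0.09, -0.20, -0.15 and -0.03, against 0.61, 0.16, 0.25 and 0.33 with the totals. At a minimum of 50 CPM the Wnt, TGF-beta and chemokine medians were -0.22, 1.43 and 0.50, against 0.61, -0.20 and -0.20, and those of the cAMP, immediate early, G1 and mature fibre lists were 2.23, -1.04, 0.71 and 2.77, against 0.16, -0.35, 0.33 and 1.51. Against 1758 genes higher and 625 lower in MPC, a pseudocount of 20 CPM gave 853 and 310, a minimum level of 50 CPM gave 875 and 363, and TMM scaling gave 1034 and 1305. Each other setting kept both counts within 1.5 times. Thinning to 5000 UMIs before the cells were chosen, with a limit of 2 cycling UMIs, left 3844 MPC and 915 ASC cells, with 1368 genes higher and 672 lower. Keeping cells of 15000 to 40000 UMIs gave 1597 and 669, and dropping the cells marked as doublets by Scrublet (187 MPC and 45 ASC cells) gave 1770 and 618. Of the genes named as higher, Eya1, Eya4, Spred1, Spred2, Spry4, E2f3, E2f7, Pola1, Mki67, Ttk, Kif11, Dag1, Aldh1a2, mt-Nd3, Stard4, Nkd1, Lgr5, Id3, Hoxc6, Hoxc10 and Shmt2 lost their calls under TMM. Between 15000 and 40000 UMIs the calls lost included those of Msc, Ccnd1, Lgr5, Id3, Sdhd and Stard4. The cause was not tested. The 4 alternatives that follow were chosen after seeing the data. With macrophage RNA subtracted from ASC, Lyz2, Ctss, Tyrobp, Fcer1g and C1qb lost their calls. The share subtracted was that of Lyz2, so the loss of its call was fixed in advance. Ctss, Tyrobp, Fcer1g and C1qb stood at similar shares. Without the fibroblast-rich MPC cells 1707 genes were higher and 652 lower, and the calls lost included those of Grem1, Mmp3 and Hoxa9. Mmp3 was itself among the genes that picked those cells. Without the cells rich in myocyte genes the counts were 1760 and 622, and without shared barcodes 1754 and 621. The median of the cholesterol list at a minimum of 50 CPM gave no value, as too few genes were left. Depth limits the low genes: the floor of 3 UMIs is 0.0605 CPM in MPC and 0.0301 CPM in ASC. No paired analysis was possible because each group was 1 library and no test was made.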

Other observations

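Among the 81 measured ribosomal protein genes, a set taken by the pattern of their names after values were seen, 3 were higher in MPC and 3 lower. Their median log2 ratio was -0.32. Rps10 was the lowest, at 545 CPM in MPC and 2903 CPM in ASC (-2.4), and it stood at 431 CPM in myoblasts and 928 CPM in fiSC. Rpl35 was the highest, with a log2 ratio of 2.49. Reads of such genes can be shared with near-identical copies elsewhere in the genome, and how the counting treated them is not given in the sources used here.

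Y-linked genes were seen in both libraries, of which ASC pooled both sexes. Ddx3y, an RNA helicase, had 63.7 CPM in MPC and 71 CPM in ASC. Kdm5d and Uty, both histone demethylases, had 26.1 and 88.1 CPM in MPC and 5.31 and 22 CPM in ASC. Eif2s3y, a translation factor, went the other way, at 1.23 CPM in MPC and 18.6 CPM in ASC, while the myoblasts, also from a male of 16 weeks, held 33.6 CPM. The X-linked homologues have near-identical stretches, and their part in these values was not tested.

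Enzymes of amino acid supply were divided within the stress response list. The mitochondrial folate and gluconeogenic enzymes Aldh1l2 (53 CPM in MPC and 2.79 CPM in ASC), Shmt2 (153 and 63 CPM) and Pck2 (50.8 and 11.1 CPM) were higher in MPC, as was the cystine carrier Slc7a11 (82.9 and 21 CPM). Phgdh, the first enzyme of serine synthesis (143 CPM in MPC and 314 CPM in ASC), and the amino acid carrier Slc7a5 (24.8 and 67.4 CPM) were lower.

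Other tissue genes stood out singly. Scx, a factor of tendon cells that is also known in muscle at injury, had 1.71 CPM in MPC and 56.7 CPM in ASC, with 38.6 CPM in myoblasts. Lpl, lipoprotein lipase, had 153 CPM in MPC and 29.7 CPM in ASC, while the defining fat cell genes Adipoq and Plin1 lay under 10 CPM in both. Thy1, a surface protein of mesenchymal cells, had 58.4 CPM in MPC and 1.93 CPM in ASC. Within MPC, Crabp1 was seen in 26.3% of thinned cells with Ccnd2 and in 5.63% of those without, and in 47.3% of those with Col1a1 and 7.92% of those without.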
